A study of Arabidopsis thaliana with 15 samples.

Results

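BZIP60, ATERDJ3B and SGT1A are 3 Arabidopsis thaliana genes of protein folding, and each was read by a single probe set among the 22746 that were tested, of which 13436 carried the name of 1 gene. They were chosen by name from earlier results of the same arrays, in which all of them were higher in wild type leaves at 6 h and differed in how much of that difference was left at 10 h. The Col-0 values at 0, 6 and 10 h therefore chose the genes and are given here as a description, without a test. BZIP60 is locus AT1G42990 (probe set 259626_at), ATERDJ3B is AT3G62600 (251182_at) and SGT1A is AT4G23570 (254211_at).

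Transcripts were measured on 15 arrays of mature leaves from 4-week-old plants, in 5 groups of 3 biological replicates. The groups were the rps2 mutant at 10 h and at 0 h, and Col-0, the wild type, at 0, 6 and 10 h. Every group, 0 h included, is labelled as infiltrated at an optical density of 0.01 with Psm, a Pseudomonas syringae pathovar maculicola strain, carrying the effector AvrRpt2. Plants had been grown at 22 °C with 12 h of light and 12 h of darkness a day. The labels name no mock-infiltrated group, no rps2 allele and no clock time, so time after infiltration and time of day cannot be told apart. RPS2, the resistance protein affected in the mutant, is an NLR receptor that recognises the action of AvrRpt2 on its host target. The RPS2 transcript itself is not analysed here.

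The 3 genes stand at different places of the folding machinery. The endoplasmic reticulum (ER) folds secreted and membrane proteins, and a shortage of folding capacity there sets off the unfolded protein response, in which the sensor IRE1 splices the BZIP60 mRNA so that it encodes an active bZIP transcription factor. ATERDJ3B is a J-domain co-chaperone of the ER chaperone BiP, works in a complex with SDF2, and is known in this plant for the folding of the immune receptor EFR. SGT1A acts outside the ER as a co-chaperone of HSP90 and is, with its close relative SGT1B and with RAR1, part of the machinery that keeps NLR receptors stable. The arrays gave 1 value for the BZIP60 transcript, and its spliced form was not measured apart.

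Each value is a log2 difference from the probe set's own median over the 15 arrays, so it has no absolute level and the genes cannot be set against each other in abundance. In bulk leaf tissue, fewer cells of a type and less RNA per cell cannot be told apart. Replicate 3 of rps2 at 10 h stood apart from its group: over all probe sets, its difference from replicates 1 and 2 had an SD of 0.949 and 0.942, against 0.207 between those replicates and 0.17 to 0.20 from it to the rps2 0 h arrays. The main results for the 3 genes that rest on it are given with all 15 arrays and with the 14 left without it. Some results for other genes are given with 15 arrays alone. The leaf label could be checked only through relative values, and 4 of 11 listed mesophyll markers, 2 of 4 guard cell markers, 1 of 4 phloem markers and 0 of 4 epidermis markers had a named probe set. The mean of the 4 mesophyll markers (LHCB4.2, PRK, RCA and SBPASE) was 0.83 to 0.94 in Col-0 at 0 h, -1.60 to -1.30 at 6 h and -3.88 to -3.53 at 10 h, and its part in the results below was not tested.

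The poly-A spike-ins, bacterial transcripts that are added to RNA before labelling, moved with 1 of the groups. The mean of their 24 probe sets was 0.98 ± 0.13 (SD, n = 3) in Col-0 at 10 h, and no array of the other groups exceeded 0.12. Centring the arrays on these probe sets moved each Col-0 change at 10 h by -1.08 when set against 0 h and by -1.11 when set against 6 h, and every difference between rps2 and Col-0 at 10 h by 1.20. Their part in the 10 h results was not tested, and values on this poly-A scale are given beside the deposited ones. A difference between genes on the same arrays is the same on both scales.

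BZIP60 was high in Col-0 at 6 h and, on the deposited scale, as high at 10 h. In rps2 at 10 h its log2 values were 0.00, 0.35 and -1.38, and in rps2 at 0 h they were -1.71, -1.35 and -1.20. In Col-0 they were -1.57, -1.59 and -1.53 at 0 h, 1.52, 1.46 and 1.23 at 6 h, and 1.66, 1.66 and 1.67 at 10 h. All 6 Col-0 arrays of 6 and 10 h lay above every other array, while replicate 3 of rps2 at 10 h lay within the rps2 0 h range. The Col-0 difference was 2.97 ± 0.32 (SE of the fitted log2 change, here and below after ± unless SD is written) at 6 h, a 7.82-fold difference, and 3.23 ± 0.32 at 10 h, a 9.37-fold difference. The 10 h arrays lay above the 6 h arrays by 0.26 ± 0.32 on the deposited scale, but below them by -0.85 ± 0.35 on the poly-A scale and by -0.22 ± 0.41 after quantile normalization was repeated.

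ATERDJ3B had a Col-0 level at 10 h between those of 0 h and 6 h. Its log2 values were 0.00, 0.22 and -2.40 in rps2 at 10 h, against -2.32, -2.35 and -2.20 in rps2 at 0 h. In Col-0 they were -1.61, -1.84 and -1.81 at 0 h, 1.43, 1.48 and 1.38 at 6 h, and 0.71, 0.59 and 0.66 at 10 h. The Col-0 groups did not overlap, and replicate 3 of rps2 at 10 h was the lowest of all 15 arrays for this gene. The Col-0 difference was 3.18 ± 0.48 at 6 h, which is 9.07-fold, and 2.41 ± 0.48 at 10 h, which is 5.30-fold. Col-0 at 10 h differed from Col-0 at 6 h by -0.78 ± 0.48 on the deposited scale, or -1.89 ± 0.48 with arrays centred on the spike-ins.

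SGT1A had the most transient pattern of the 3. Its log2 values were 0.82, 0.94 and -0.12 in rps2 at 10 h, against -0.48, -0.38 and 0.00 in rps2 at 0 h. In Col-0 they were -0.86, -0.82 and -0.94 at 0 h, 2.45, 2.33 and 2.41 at 6 h, and 0.13, -0.08 and 0.13 at 10 h. The 6 h arrays stood at least 1 log2 unit above every other array, and the Col-0 10 h arrays lay below replicates 1 and 2 of rps2 at 10 h. The Col-0 difference was 3.27 ± 0.22 at 6 h, which is 9.62-fold, and 0.93 ± 0.22 at 10 h, which is 1.91-fold, but the 10 h difference was -0.15 ± 0.26 on the poly-A scale. Col-0 at 10 h differed from Col-0 at 6 h by -2.33 ± 0.22, the 46th most negative of the 22746 changes in that comparison, and by -3.45 ± 0.26 on the poly-A scale.

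**Figure D1:**
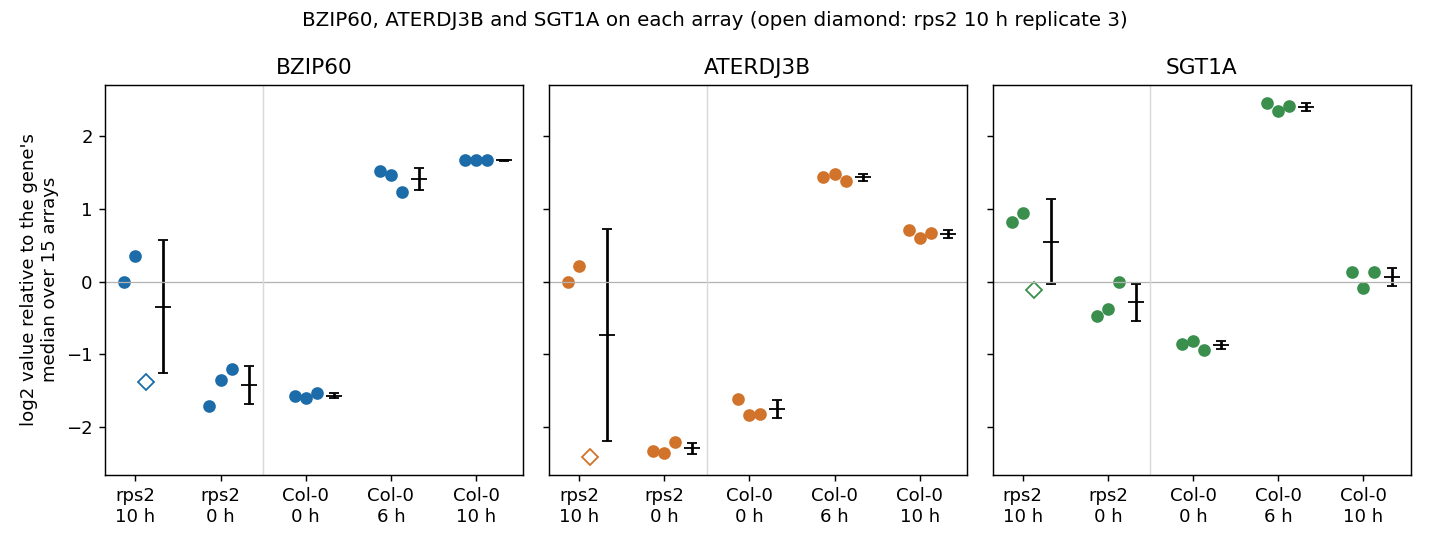
Log2 value of BZIP60, ATERDJ3B and SGT1A on each of the 15 arrays, relative to the gene's median over the arrays, in rps2 at 10 h and 0 h and in Col-0 at 0, 6 and 10 h. Points are single arrays, the open diamond is replicate 3 of rps2 at 10 h, and black bars are the mean ± SD (n = 3). At 10 h the Col-0 arrays of BZIP60 stay near 1.66 while those of SGT1A lie near 0.06.

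The standard errors of the Col-0 differences were mostly set by replicate 3 of rps2 at 10 h, because the 5 groups share 1 estimate of the spread. The residual SD was 0.43 for BZIP60, 0.655 for ATERDJ3B and 0.29 for SGT1A over 15 arrays, and 0.164, 0.0931 and 0.14 over 14. Without that array the standard errors of the Col-0 differences were 0.12 for BZIP60, 0.08 for ATERDJ3B and 0.11 for SGT1A. The differences themselves do not involve it and kept their values.

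The contrast between a lasting and a transient pattern can be put as the share of the 6 h difference that was left at 10 h. The share was 109% for BZIP60, 75.6% for ATERDJ3B and 28.5% for SGT1A on the deposited scale. Of the 1437 probe sets that were higher in Col-0 by at least 2 log2 units at 6 h, the median share was 107%, with quartiles of 88.8% and 126%. Only 43 of them had under 50%, and SGT1A had the 12th lowest share. ATERDJ3B lay below the lower quartile and BZIP60 near the median, and these places in the order are a description of genes picked for the pattern. The shares on the poly-A scale were 71.6% for BZIP60, 41.3% for ATERDJ3B and -4.40% for SGT1A, beside a median of 73.4% over the same 1437 probe sets, of which 315 had under 50%. After repeated quantile normalization they were 92.3%, 70.4% and 30.8% in the same gene order, beside a median of 91.1%. SGT1A had the smallest share of the 3 genes on all 3 scales. Centring on the spike-ins shifts all genes alike, so the repeat of this order on the poly-A scale is not separate evidence. A measure that centring on the spike-ins cannot move is the difference between genes on the same array: SGT1A less BZIP60 was -1.60 ± 0.12 in Col-0 at 10 h against 0.99 ± 0.16 at 6 h (SD, n = 3 each), and SGT1A less ATERDJ3B was -0.59 ± 0.08 at 10 h against 0.97 ± 0.10 at 6 h (SD, n = 3 each).

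**Figure D2:**
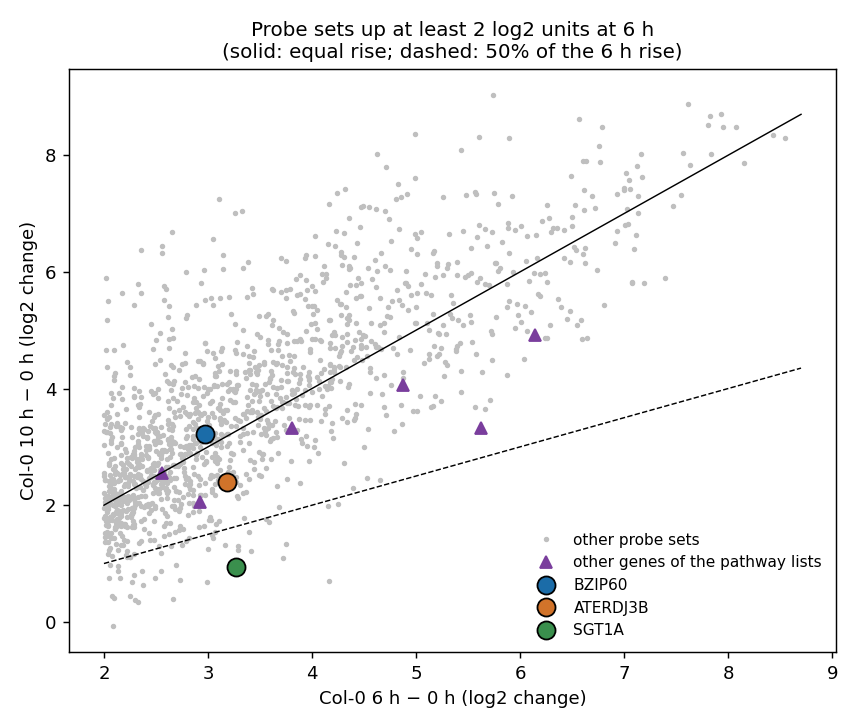
Log2 change of Col-0 at 10 h against 0 h (vertical axis) by that at 6 h against 0 h (horizontal axis) for the 1437 probe sets higher by at least 2 log2 units at 6 h, on the deposited scale. Triangles are other genes of the folding lists, the solid line marks equal changes and the dashed line 50% of the 6 h change. BZIP60 lies near the solid line with 109% left, ATERDJ3B below it with 75.6%, and SGT1A under the dashed line with 28.5%.

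The rps2 arrays did not choose the genes, so the change of rps2 between 0 and 10 h could be tested. With all 15 arrays, limma's moderated test with Benjamini-Hochberg adjustment called none of the 22746 probe sets (0% higher and 0% lower at an adjusted p under 0.05), although 8726 had an unadjusted p under 0.05. BZIP60 differed between 10 h and 0 h by 1.07 ± 0.32, ATERDJ3B by 1.56 ± 0.48 and SGT1A by 0.83 ± 0.22 (limma adjusted p = 0.052 for each gene), and replicates 1 and 2 lay above all rps2 0 h arrays for every one of them. Without replicate 3 of rps2 at 10 h the same test called 21.2% of the probe sets higher and 26.9% lower, and all 3 genes were called higher. The array left out is the one that lay close to the rps2 0 h arrays. Leaving it out therefore favours a difference from 0 h, and only 2 arrays remain at 10 h. BZIP60 rose by 1.59 ± 0.14 (limma adjusted p = 1.01e-07), ATERDJ3B by 2.40 ± 0.09 (limma adjusted p = 1.82e-11) and SGT1A by 1.16 ± 0.12 (limma adjusted p = 9.09e-07). On the poly-A scale all 3 passed with the 15 arrays, with changes of 1.36, 1.85 and 1.12 in the same order and limma adjusted p of 0.0176, 0.0185 and 0.0174, where 18.1% of all probe sets were called higher and 0.972% lower. Centring on the spike-ins adds 0.29 to the change of every probe set in this comparison.

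**Figure D3:**
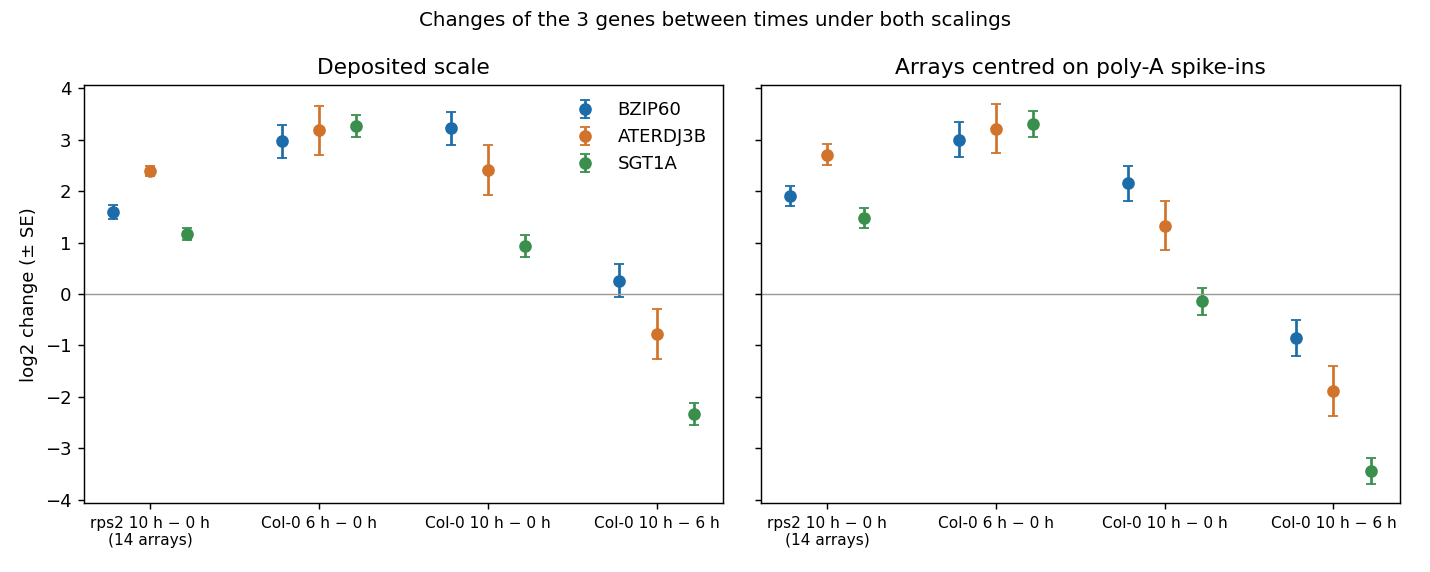
Log2 change ± SE of BZIP60, ATERDJ3B and SGT1A in rps2 at 10 h against 0 h (14 arrays, without replicate 3) and in Col-0 (15 arrays) for 6 h and 10 h, each set against 0 h, and for 10 h set against 6 h, on the deposited scale (left) and with arrays centred on the poly-A spike-ins (right). The 6 h changes are close to 3 in both panels. Centring shifts all genes alike, so the order BZIP60, ATERDJ3B, SGT1A at 10 h in Col-0 is necessarily the same in both. SGT1A lies at 0.93 on the left and -0.15 on the right.

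At 0 h the genotypes gave no single direction for the 3 genes. The value of rps2 less Col-0 was 0.15 ± 0.32 for BZIP60, -0.54 ± 0.48 for ATERDJ3B and 0.59 ± 0.22 for SGT1A, and none of them passed with 15 arrays (limma adjusted p = 0.857, 0.570 and 0.0964), where 8.24% of all probe sets were called higher and 7.69% lower. For ATERDJ3B all rps2 0 h arrays lay below all Col-0 0 h arrays, for SGT1A all lay above, and for BZIP60 the groups overlapped. The share of all probe sets whose groups separate in this way is not given, here or for the other groups, so these statements only describe the genes. With 14 arrays, which leave this difference as it is and narrow the spread, ATERDJ3B was lower in rps2 (limma adjusted p = 1.48e-04) and SGT1A higher (limma adjusted p = 5.93e-04), while BZIP60 did not pass (limma adjusted p = 0.445, 95% interval -0.11 to 0.40). That fit called 16.3% of all probe sets higher and 13.9% lower at 0 h. With 14 arrays centred on the spike-ins, ATERDJ3B was lower by -0.70 (limma adjusted p = 8.26e-04), while SGT1A differed by 0.42 and no longer passed (limma adjusted p = 0.0811), beside 5.77% of all probe sets called higher and 13.1% lower. That fit gave all probe sets the same residual spread, so its p-values do not reflect the spread of each gene. The Col-0 arrays of the genotype comparisons are those on which the genes were picked, so these p-values are not independent of that choice.

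At 10 h the 3 genes again differed in direction between the genotypes. The Col-0 10 h values are among those that chose the genes, so the p-values given for them here are not independent of that choice. With 15 arrays, BZIP60 was lower in rps2 than in Col-0 by -2.01 ± 0.32 (limma adjusted p = 1.43e-04) and ATERDJ3B by -1.38 ± 0.48 (limma adjusted p = 0.0278), and SGT1A differed by 0.49 ± 0.22 (limma adjusted p = 0.0777), beside 26.9% of all probe sets called higher and 28.2% lower. Leaving out any single array of Col-0 at 10 h ended the call of ATERDJ3B, with values of -1.41 to -1.36 and limma adjusted p of 0.0577 to 0.0662. Without replicate 3 of rps2, BZIP60 was lower by -1.49 ± 0.14 (limma adjusted p = 1.16e-07), ATERDJ3B was lower by -0.55 ± 0.09 (limma adjusted p = 1.18e-04), and SGT1A was higher by 0.82 ± 0.12 (limma adjusted p = 2.46e-05), beside 27.8% called higher and 29.6% lower. On the poly-A scale with 15 arrays the difference was -0.80 for BZIP60 (limma adjusted p = 0.0382), -0.18 for ATERDJ3B (limma adjusted p = 0.726) and 1.69 for SGT1A (limma adjusted p = 1.62e-05), where 84.4% of all probe sets were called higher in rps2 and 5.77% lower. With 14 arrays on that scale BZIP60 differed by -0.26 and no longer passed (limma adjusted p = 0.200), ATERDJ3B turned to higher in rps2 by 0.68 (limma adjusted p = 7.00e-04), and SGT1A was higher by 2.05, beside 87.7% of all probe sets called higher and 5.4% lower. As at 0 h, that fit gave all probe sets the same residual spread, so its p-values do not reflect the spread of each gene. After repeated quantile normalization with 14 arrays, BZIP60 was lower by -0.64 (limma adjusted p = 0.00813), ATERDJ3B differed by -0.14 and did not pass (limma adjusted p = 0.336), and SGT1A was higher by 1.56 (limma adjusted p = 5.78e-07), beside 27.4% called higher and 28.9% lower.

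The difference between the 10 h changes of the genotypes, coded as the rps2 change less the Col-0 change, contains the Col-0 change that chose the genes, so it is described for them without a test. On the deposited scale it was -2.15 ± 0.45 for BZIP60 with 15 arrays and -1.64 ± 0.18 with 14. For ATERDJ3B it was -0.85 ± 0.68 with 15 arrays and -0.01 ± 0.13 with 14, and for SGT1A it was -0.10 ± 0.31 with 15 and 0.23 ± 0.16 with 14. Over all probe sets the test of this interaction called 22.1% higher and 22.4% lower with 15 arrays, and 25.3% higher and 26.5% lower with 14. Without replicate 3, the 10 h changes of rps2 and Col-0 on the deposited scale were 2.40 and 2.41 for ATERDJ3B, 1.16 and 0.93 for SGT1A, and 1.59 and 3.23 for BZIP60.

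This difference depended on the scale, because Col-0 at 10 h enters it. The 10 h changes of rps2 and Col-0 on the poly-A scale with 14 arrays were 2.71 and 1.33 for ATERDJ3B, 1.48 and -0.15 for SGT1A, and 1.91 and 2.15 for BZIP60. The differences between them were 1.38 for ATERDJ3B, 1.62 for SGT1A and -0.24 for BZIP60. With 14 arrays the gene closest to 0 was thus BZIP60 on that scale. On the deposited scale it was ATERDJ3B at -0.01, with SGT1A at 0.23 and BZIP60 at -1.64. With 15 arrays on the poly-A scale the differences were 0.52 for ATERDJ3B, 1.27 for SGT1A and -0.79 for BZIP60. There 82.4% of all probe sets were called higher and 4.7% lower, and their median was 1.31. After repeated quantile normalization with 14 arrays the differences were 0.30, 0.95 and -0.71 in the same gene order. Differences between the genes are unmoved by centring on the spike-ins: over 14 arrays the interaction of ATERDJ3B exceeded that of BZIP60 by 1.63, and that of SGT1A exceeded it by 1.87. No rps2 array was taken at 6 h, so a transient level of SGT1A in rps2 could not be looked for.

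The order of the groups over 14 arrays summarises the levels on the deposited scale. For BZIP60 it was Col-0 at 10 h, Col-0 at 6 h, rps2 at 10 h, and then rps2 and Col-0 at 0 h, which overlapped. For ATERDJ3B it was Col-0 at 6 h, Col-0 at 10 h, rps2 at 10 h, Col-0 at 0 h and rps2 at 0 h, with no overlap between neighbours. For SGT1A it was Col-0 at 6 h, rps2 at 10 h, Col-0 at 10 h, rps2 at 0 h and Col-0 at 0 h, and Col-0 at 10 h overlapped with rps2 at 0 h. With arrays centred on the spike-ins, Col-0 at 10 h lay below Col-0 at 6 h for BZIP60, by -0.85, and rps2 at 10 h lay above Col-0 at 10 h for ATERDJ3B, by 0.68. For SGT1A the mean of Col-0 at 10 h then became the lowest of the groups, by -0.15 against Col-0 at 0 h. Pearson's r over the 14 arrays was 0.952 between BZIP60 and ATERDJ3B, 0.687 between BZIP60 and SGT1A and 0.809 between ATERDJ3B and SGT1A, as a description of arrays that share their groups.

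The other genes of the folding pathways came from 6 lists of 102 genes, compiled from general knowledge with earlier results of these data known. Of these, 28 genes had a probe set that carried the name of 1 gene, with 29 probe sets between them. Only such genes are counted as measured below, and the other listed genes were not looked at. Leaving out the 3 genes, 26 probe sets remained. In Col-0 at 6 h, 22 of the 26 were higher and 0 lower (limma, 0 lower also at an unadjusted p under 0.05), with a median change of 1.28 against -0.04 over all probe sets, of which 25.5% were called higher and 28.6% lower. In Col-0 at 10 h, 19 were higher and 1 was lower, with a median of 0.86 against 0.00, where 29.2% of all were called higher and 30.5% lower. On the poly-A scale the 10 h split became 8 higher and 11 lower, with a median of -0.22 against -1.08, where 10.5% of all were called higher and 79.2% lower. Between 10 h and 6 h in Col-0, 0 were higher (also at an unadjusted p under 0.05) and 11 lower, beside 12.7% of all called higher and 17.2% lower, and on the poly-A scale 0 were higher and 26 lower, beside 1.89% and 90.3%.

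Among the ER stress regulators, 2 of 4 rose in Col-0 at 6 h, beside 25.5% of all probe sets. At 10 h 1 rose and 1 fell, near the shares of 29.2% and 30.5% over all, so this count is not read as a result. BZIP28, a membrane-bound bZIP factor that is cut free under ER stress, rose by 1.67 ± 0.17 at 6 h and by 1.97 ± 0.17 at 10 h in Col-0 (limma adjusted p = 2.22e-06 and 3.22e-07), with a change of 0.89 at 10 h after centring on the spike-ins. BZIP17, a membrane-bound factor of the same kind, rose by 0.81 ± 0.17 at 6 h (limma adjusted p = 9.82e-04) and had a change of 0.02 ± 0.17 at 10 h (limma adjusted p = 0.924), or -1.06 on the poly-A scale. S1P, the protease that cuts such factors, had a change of 0.19 at 6 h that did not pass and fell by 0.33 at 10 h. IRE1A and IRE1B are not analysed here.

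The ER chaperones and folding enzymes had 3 measured members besides ATERDJ3B. All of them rose in Col-0 at both times on the deposited scale, beside 25.5% of all probe sets at 6 h and 29.2% at 10 h. None was higher at 10 h on the poly-A scale, beside 10.5% of all. CRT1b, a calreticulin that binds sugar-bearing proteins in the ER, rose by 1.93 ± 0.24 at 6 h and by 0.87 ± 0.24 at 10 h. ATERDJ2A, an ER J-domain protein of the translocon, rose by 0.83 ± 0.09 and by 0.78 ± 0.09, and AT5G07340 rose by 1.22 and by 0.42. SDF2 and the BiP genes, the direct partners of ATERDJ3B, are not analysed here.

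Genes of ER entry and disposal were mostly higher as well on the deposited scale. In the translocon and N-glycosylation list 4 of 4 rose in Col-0 at both times, led by AT3G60540 with 3.81 ± 0.62 at 6 h and 3.32 ± 0.62 at 10 h, though AT3G20920 turned to -0.72 at 10 h on the poly-A scale. In the ER-associated degradation list 6 of 7 probe sets rose at 6 h and 5 of 7 at 10 h. Beside the counts of both lists, 25.5% of all probe sets were called higher at 6 h and 29.2% at 10 h. OS9, a lectin that picks out misfolded glycoproteins, rose by 1.34 at 6 h and by 0.85 at 10 h, and UBC32, a ubiquitin-conjugating enzyme of that pathway, rose by 0.98 and by 1.23, but on the poly-A scale neither passed at 10 h, with changes of -0.23 and 0.15. The DER1 probe sets disagreed, with 1.79 at 6 h for 253712_at and 0.01 for 253711_at.

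Of the chaperones listed around SGT1A, all 6 measured rose in Col-0 at 6 h, with a median of 2.45, beside 25.5% of all probe sets. At 10 h 5 of 6 rose, with a median of 2.01, beside 29.2% of all. On the poly-A scale 4 were higher and 2 lower at 10 h, beside 10.5% and 79.2% of all. The other members on this list that were looked for, among them SGT1B, RAR1 and the HSP90 genes, are not analysed here. Hop3, an adaptor that links HSP70 with HSP90, rose by 4.88 ± 0.15 at 6 h and by 4.07 ± 0.15 at 10 h, and Hsp70-2, a cytosolic HSP70, rose by 6.15 and by 4.92. Hop2, another adaptor of the Hop family, rose by 1.98 and by 1.97, and Hop1 of the same family rose by 0.66 at 6 h and had a change of -0.04 at 10 h that did not pass, or -1.12 on the poly-A scale, where it fell. Of the 6 list members besides SGT1A, Hop3, Hsp70-2 and AT3G09440 were higher by at least 2 log2 units at 6 h, and on the deposited scale they had 83.4%, 80.1% and 70.5% of that left at 10 h, beside the 28.5% of SGT1A. Their shares were 60.9%, 62.2% and 33.3% on the poly-A scale in the same gene order, beside -4.40% for SGT1A. From the cytosolic heat shock list, AT5G48570 (synonym ROF2 in the gene table, a prolyl isomerase) rose by 5.62 at 6 h and by 3.32 at 10 h, a share of 59.1% on the deposited scale and 39.6% on the poly-A scale.

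**Figure D4:**
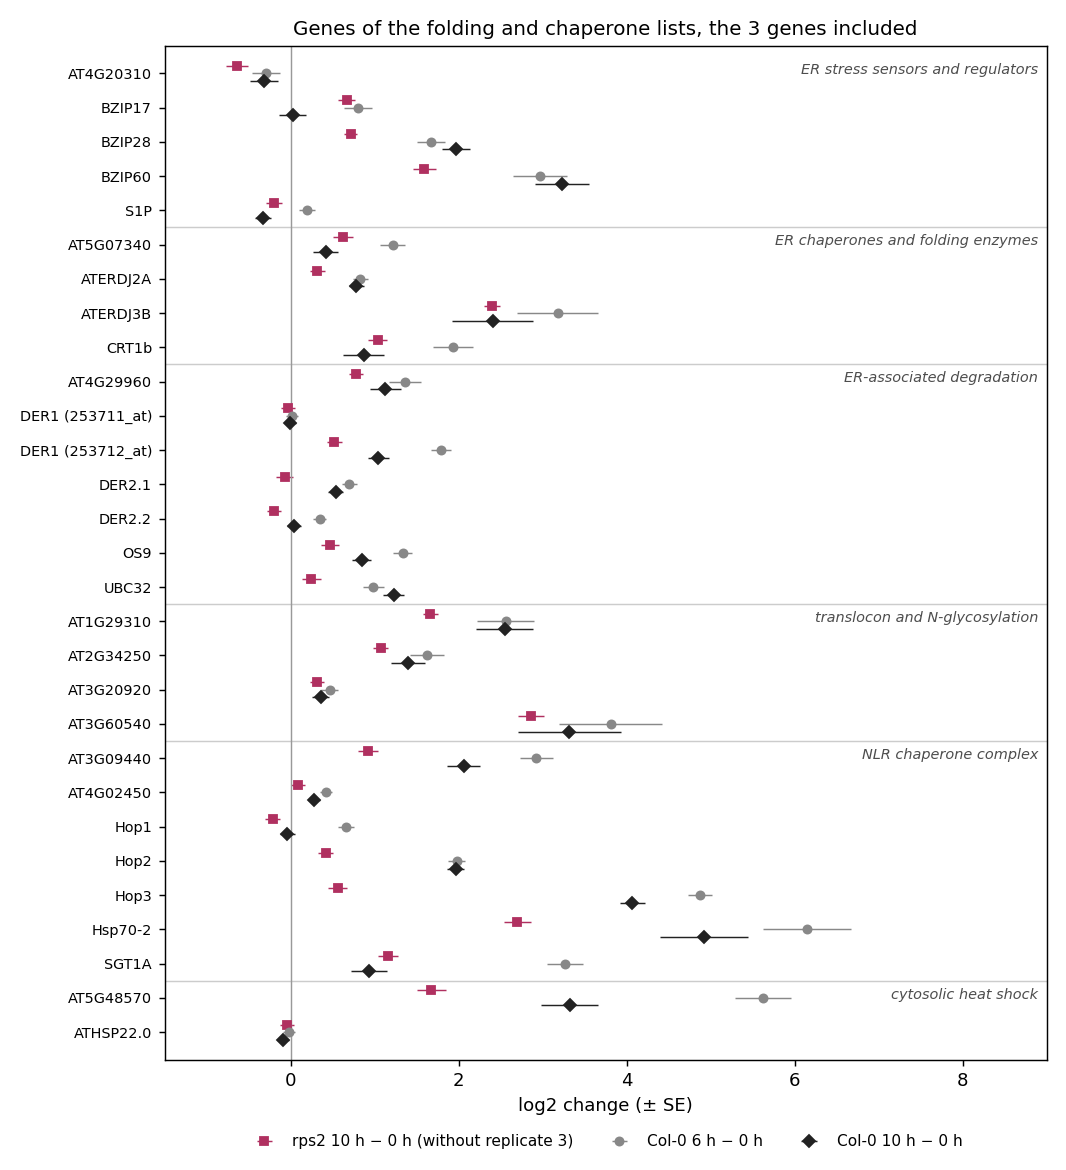
Log2 change ± SE of the 29 probe sets of the folding and chaperone lists, BZIP60, ATERDJ3B and SGT1A included, in rps2 at 10 h against 0 h (squares, 14 arrays without replicate 3), Col-0 at 6 h against 0 h (circles) and Col-0 at 10 h against 0 h (diamonds), on the deposited scale. Squares lie close to the Col-0 10 h diamonds for ATERDJ3B and SGT1A and far to the left of them for BZIP60, BZIP28, Hop2, Hop3 and Hsp70-2.

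In rps2 at 10 h, 0 of the 26 probe sets passed in either direction with 15 arrays (limma, 16 higher and 1 lower at an unadjusted p under 0.05). Without replicate 3, 17 rose and 1 fell, with a median of 0.49 against -0.07 over all probe sets, of which 21.2% were called higher and 26.9% lower. As for the 3 genes, leaving out this array favours a difference from 0 h. BZIP28 then rose by 0.72 ± 0.07, BZIP17 by 0.67, CRT1b by 1.04, AT3G60540 by 2.86, Hsp70-2 by 2.70 and Hop3 by 0.56. The change of ATERDJ3B in rps2 over 14 arrays was exceeded on these lists by those of AT3G60540 and Hsp70-2 alone.

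The difference between rps2 and Col-0 in these lists was mostly towards lower values in rps2 at 10 h on the deposited scale, and turned on the poly-A scale. At 0 h, 1 of the 26 was higher and 2 were lower in rps2 with 15 arrays, beside 8.24% and 7.69% of all probe sets. With 14 arrays 1 was higher and 7 were lower at 0 h, beside 16.3% and 13.9%. At 10 h, 1 was higher and 19 were lower with 15 arrays, beside 26.9% and 28.2% of all, and 1 and 16 with 14, beside 27.8% and 29.6%. The 10 h split was 14 higher and 5 lower on the poly-A scale with 15 arrays, beside 84.4% and 5.77% of all. For the interaction, 0 were higher (also at an unadjusted p under 0.05) and 12 lower with 15 arrays, beside 22.1% and 22.4% of all, and 1 higher and 14 lower with 14, beside 25.3% and 26.5%. The interaction called 15 higher and 2 lower on the poly-A scale with 15 arrays, beside 82.4% and 4.7% of all. Hop3 and Hsp70-2 had a smaller change in rps2 on both scales with 15 arrays, with interactions of -3.70 and -3.10 on the deposited scale and -2.33 and -1.73 on the poly-A scale. These values include replicate 3 of rps2 at 10 h, where Hsp70-2 was at -2.53, against 0.00 and 0.19 in replicates 1 and 2. The 4 mesophyll markers were all higher in rps2 than in Col-0 at 10 h, with a median of 3.94 over 15 arrays and 3.68 over 14, and their part in these differences was not tested.

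The probe sets with the pattern most like each gene were ranked by Pearson's r over the 14 arrays, as a description of arrays in shared groups. For BZIP60 the first 5 were AT1G13340, AT5G27760, AT1G17330, AT1G35210 and AT1G63720, with r of 0.996 to 0.997. For ATERDJ3B they were AT1G52600, AT3G07720, AT1G26690, AT5G17760 and AT2G25520, with r of 0.993 to 0.996. For SGT1A they were AT3G14920, AT4G00500, AT2G36670, GLR2.7 and AT1G13000, with r of 0.971 to 0.986, and GLR2.7, a glutamate receptor-like channel gene, was higher by 2.14 at 6 h and by 0.95 at 10 h in Col-0 and by 0.88 in rps2 over 14 arrays. None of these 15 genes is on the folding lists.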

How the data were processed

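The authors deposited log2 values that, per the submitters' processing notes, had been made with RMA; each of the 22810 probe sets had a median of 0 over the 15 arrays, with values from -8.93 to 7.49. The 64 control probe sets were set aside. Groups came from the sample titles. Gene names came from the platform's probe annotation and a gene table of assembly TAIR10.1. A mean for each of 5 groups was fitted with limma 3.58.1 in R 4.3.3 (lmFit, eBayes, two-sided, Benjamini-Hochberg over 22746 probe sets, threshold 0.05). The fit had 10 residual and 2.31 prior degrees of freedom, and 9 and 5.55 without replicate 3 of rps2 at 10 h. Precision is limited by the number of arrays. Replicates are labelled biological, and the p-values rest on their spread.

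The 3 genes and the gene lists were chosen with earlier results of these data known. By the rule for names, every measured list gene could be named with its list counted, the examples being the largest and smallest changes and the partners of the 3 genes, and for likeness the 5 single-gene probe sets with the highest r. OS9, UBC32, Hop1, Hop2, DER1 and the marker genes were picked as examples after their values were seen. Shares of the 6 h difference on each scale, and the poly-A and repeated quantile fits without replicate 3, were chosen after seeing the data. No filter on dim probe sets was possible, because centred values do not measure brightness. A planned promoter search was not run. The fit was tested on simulated data. Alternatives covered the groups in the fit, the replicate number as a block, the variance model, the scaling, probe sets of shared transcripts, a minimum change and each array left out.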

Additional observations from a re-analysis of the deposited data

Results flagged for a closer look

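The 10 h change differed between the genotypes, by the test of the difference itself (rps2 change less Col-0 change, limma over 15 arrays), for 12 probe sets of the folding lists, all lower, beside 22.1% of all probe sets called higher and 22.4% lower. Without replicate 3 of rps2 at 10 h all 12 were still called lower, beside 25.3% of all called higher and 26.5% lower. The single values below come from 15 arrays and include that replicate. For BZIP60 the difference was -2.15, from a change of 1.07 in rps2 against 3.23 in Col-0. The Col-0 change chose this gene, so its value is a description without a test. In the NLR chaperone list it was -3.70 for Hop3, -3.10 for Hsp70-2, -1.67 for Hop2 and -1.44 for AT3G09440. Among ER stress regulators it was -1.52 for BZIP28, and among cytosolic heat shock genes -2.16 for AT5G48570. In the ER lists it was -1.46 for AT1G29310, -0.55 for ATERDJ2A, -1.11 for UBC32, -0.70 for the DER1 probe set 253712_at, -0.61 for DER2.1 and -0.49 for OS9. On the poly-A scale with 15 arrays, 2 of the 12 (Hop3 and Hsp70-2) were still called lower, 6 did not pass and 4 were called higher, beside 82.4% of all probe sets called higher and 4.7% lower. After repeated quantile normalization 5 of the 12 were called lower and 7 did not pass. The difference of BZIP60 was -0.79 on the poly-A scale.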

How the results depend on the processing

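The cause of each shift below was not tested. Calls of the 3 genes between genotypes use the Col-0 values that chose them, so they only describe the processing. On the poly-A scale the values of BZIP60, ATERDJ3B and SGT1A in Col-0 at 10 h against 0 h were 2.15, 1.33 and -0.15, and at 10 h against 6 h -0.85, -1.89 and -3.45; in rps2 at 10 h against 0 h they were 1.36, 1.85 and 1.12 and now passed. BZIP60 at 0 h between genotypes was -0.0183, ATERDJ3B and SGT1A at 10 h between genotypes were -0.18 and 1.69, and the interactions were -0.79, 0.52 and 1.27. Pathway counts there were 8 higher and 11 lower for Col-0 10 h against 0 h, beside 10.5% and 79.2% of all probe sets. They were 26 lower for 10 h against 6 h, beside 90.3%, and 16 higher in rps2, beside 18.1%. At 0 h the count was 0 higher. Between genotypes at 10 h it was 14 higher and 5 lower, beside 84.4% and 5.77%. For the interaction it was 15 higher and 2 lower, beside 82.4% and 4.7%. Counts in this section with no such share beside them describe the processing and are not read as results about the lists. After repeated quantile normalization, ATERDJ3B was 3.02 at 6 h, 2.13 at 10 h and -0.89 between them in Col-0, BZIP60 was 2.64 at 10 h and -0.22 against 6 h, and the rps2 changes of the 3 genes (1.28, 1.58 and 1.38) passed. Between genotypes at 10 h ATERDJ3B (-0.996) no longer passed and SGT1A (0.98) did, the interaction was -1.36 for BZIP60 and 0.36 for SGT1A, and counts were 0 lower (Col-0 10 h against 0 h), 9 higher (rps2) and 5 lower (interaction). With trended and robust variance the rps2 changes passed at unmoved values of 1.07, 1.56 and 0.83, and 4 list probe sets were higher. With only the groups compared, ATERDJ3B (-0.54) and SGT1A (0.59) passed at 0 h, ATERDJ3B (-1.38) no longer passed at 10 h, and counts were 1 lower (Col-0 6 h), 2 lower (Col-0 10 h against 0 h), 1 higher (10 h against 6 h), 8 lower (0 h) and 12 lower (genotypes at 10 h). With a change of at least 1, counts were 14 higher (Col-0 6 h), 12 higher and 0 lower (Col-0 10 h), 2 lower (10 h against 6 h), 0 higher and 1 lower (0 h) and 0 higher and 10 lower (genotypes at 10 h). Leaving out each array in turn gave 0.73 to 1.59 for BZIP60, 1.09 to 2.40 for ATERDJ3B and 0.63 to 1.16 for SGT1A in rps2, all passing without replicate 3 of rps2 at 10 h alone; -0.58 to -0.47 for ATERDJ3B and 0.45 to 0.68 for SGT1A at 0 h; -1.86 to -0.55 for ATERDJ3B and 0.29 to 0.82 for SGT1A at 10 h; and -0.30 to 0.23 for the SGT1A interaction. Counts ran from 0 to 1 lower (Col-0 6 h), 1 to 2 lower (Col-0 10 h), 0 to 1 higher (10 h against 6 h), 0 to 17 higher and 0 to 1 lower (rps2), 0 to 1 higher and 2 to 7 lower (0 h) and 0 to 1 higher (interaction). No sign was seen that replicate numbers pair the samples. Same-numbered arrays had correlations of -0.173 to 0.106 in their deviations and differently numbered ones -0.155 to 0.163. With at most 3 arrays in a group, this check cannot exclude pairing. With the replicate block no call of the 3 genes changed, and the BZIP60 interaction was -2.15. The ATERDJ3B call at 10 h between genotypes was lost without any single array of Col-0 at 10 h, in 3 of the 15 fits that left out 1 array.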
